A study of Homo sapiens with 6 samples.

Results

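The mucin genes were examined in SK-MES-1 cells, a human line of lung squamous cell carcinoma, across the 6 RNA sequencing libraries of a KRT6A knockdown experiment. The 7 genes were MUC1, MUC4, MUC13, MUC16 and MUC20, which encode mucins anchored in the cell membrane, and MUC5AC and MUC5B, which encode secreted, gel-forming mucins. They were taken by name from the 58735 genes of the deposited table, and each name matched 1 gene. According to the labels, the cells of the groups called si1 and si2 carried transient knockdown of KRT6A, and the control group is called NC. Each group had 2 libraries, and the labels name no further genotype, dose or time. They give neither the knockdown reagents nor whether replicates came from separate cultures, so a p-value reflects the spread among these libraries alone, which may be technical.

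Mucins are long glycoproteins whose protein core carries tandem repeats rich in serine and threonine, the residues to which O-linked sugars are attached. Surface mucins shield the epithelium and signal through short cytoplasmic tails. Gel-forming mucins are packed into granules and released as mucus, and MUC5AC and MUC5B are the main gel-forming mucins of the airway.

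The repeats are shown for the members whose levels the results turn on, MUC1 and MUC5AC, and for MUC5B, the other airway gel-forming mucin. Each line gives the commonest in-frame repeat unit of the longest coding sequence in GENCODE release 29, 5′ to 3′ on the coding strand, with codons for serine or threonine in capitals.
MUC1 repeat unit: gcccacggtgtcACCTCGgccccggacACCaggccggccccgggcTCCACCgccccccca
MUC5AC repeat unit: AGCcctgttcccACCACCAGCACA
MUC5B repeat unit: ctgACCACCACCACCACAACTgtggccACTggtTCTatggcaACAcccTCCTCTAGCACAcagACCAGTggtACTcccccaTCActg
The MUC1 unit holds 20 codons, 5 of them for serine or threonine, and 19 exact copies stand in the coding sequence. Its first copy lies in a coding exon at chr1:155191820-155191879 on the minus strand (hg38). The MUC5AC unit holds 8 codons, also with 5 for serine or threonine, in 15 exact copies, the first in a coding exon at chr11:1185742-1185765 on the plus strand. The MUC5B unit holds 29 codons with 17 for serine or threonine, in 5 exact copies, the first in a coding exon at chr11:1243193-1243279 on the plus strand. Over the whole coding sequence, serine and threonine took 26.1% of the codons of MUC1, 35.2% of those of MUC5AC and 32% of those of MUC5B. Among the other members the share was 24% in MUC13, 31.8% in MUC20, 36% in MUC16 and 38.3% in MUC4.

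Levels were deposited as FPKM, fragments scaled to gene length and to sequencing depth, a scale on which genes of different length can be compared. The values came from 14948607 to 17401392 recovered reads per library. KRT6A itself had 0 reads in each of the 6 libraries, NC included, so the targeted gene could not check the labels. Of the 8 squamous and basal markers, 3 reached a mean of 1 FPKM. They were LAMB3, a chain of laminin-332, at 161 FPKM, PERP at 86.1 and TP63 at 7.78. KRT6A and DSG3 had 0 reads in every library, KRT5 and KRT14 had at most 1 read in any library, and SOX2 averaged 0.524 FPKM. Of the 8 markers of airway goblet and club cells, 5 had 0 reads in every library (SCGB1A1, SCGB3A1, SCGB3A2, BPIFA1 and BPIFB1) and 1, AGR2, reached a mean of 1 FPKM. In bulk libraries, fewer cells making a transcript and less transcript per cell cannot be told apart.

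Of the 7 genes, MUC5AC held most of the reads. MUC5AC accounted for 93.2% and 87.5% of the members' reads in the si1 libraries, 98.4% and 98.1% in the si2 libraries and 98.5% and 98.6% in the NC libraries. Per length, MUC5AC was 4.37 and 2.05 times as abundant as MUC1 in the si1 libraries, 25.6 and 20.8 times in the si2 libraries and 26.1 and 24.5 times in the NC libraries. The si1 libraries thus stood apart from the 4 others in the ratio of MUC5AC to MUC1, with no overlap. Among all 12319 genes tested below, 22.4% differed in si1 from NC and 38.5% in si2 from si1 (limma adjusted p under 0.05). Those shares are of calls, not of genes without overlap. How many other genes or gene pairs would separate the si1 libraries in this way, here or below, was not counted. The ratio joins 2 members that moved in opposite directions in si1, which favours such a separation.

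**Figure D1:**
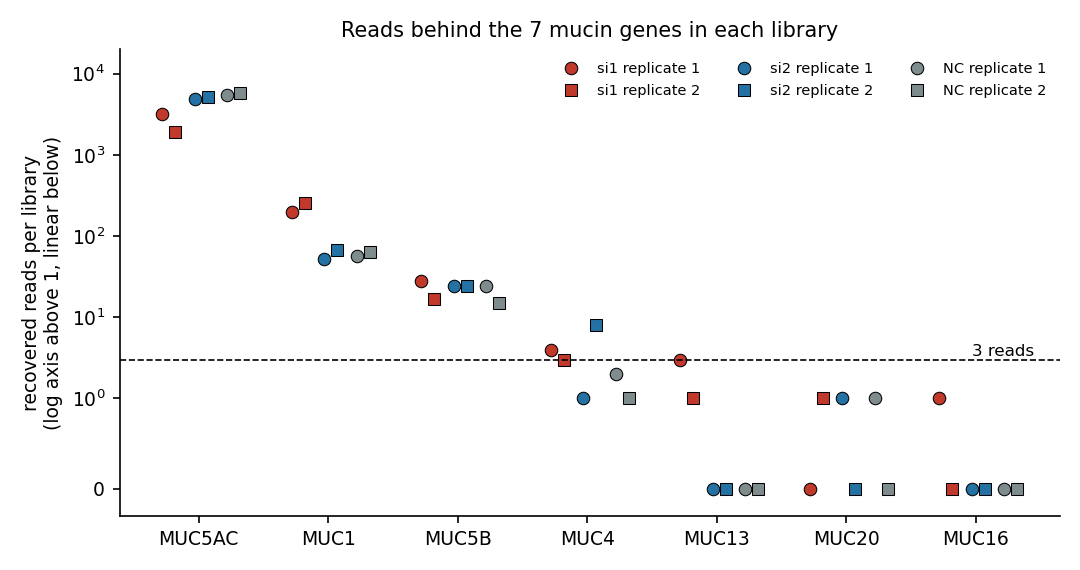
Recovered reads of each mucin gene (vertical axis, logarithmic above 1 read and linear below) in the libraries of si1, si2 and NC, with circles for replicate 1 and squares for replicate 2. MUC5AC lies at 1913 to 5797 reads and MUC1 at 52 to 252, while MUC13, MUC16 and MUC20 lie at 0 to 3 reads, at or under the dashed line at 3 reads.

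The order of the mean levels over the 6 libraries was MUC5AC at 15.4 FPKM, MUC1 at 1.47, MUC5B at 0.0727, MUC13 at 0.0116, MUC4 at 0.00931, MUC20 at 0.00715 and MUC16 at 0.000233. MUC5AC was above MUC1, and MUC1 above MUC5B, in each of the 6 libraries. The neighbours MUC13, MUC4 and MUC20 rested on 4, 19 and 3 reads in all 6 libraries together, so their order among themselves was within counting error. Only MUC5AC and MUC1 reached the mean of 1 FPKM required for a test, and the other 5 members were not tested.

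Whether the mucin genes moved in the libraries labelled as KRT6A knockdown was asked for si1 and si2 together, for each alone, and for si2 against si1. Comparisons used limma on log2(FPKM + 1) over all 12319 genes that reached the mean level, and a gene was called at a Benjamini-Hochberg adjusted p under 0.05. The comparisons of si1 and of si2 share the NC libraries.

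MUC5AC (ENSG00000215182, chr11:1157953-1201138, hg38, plus strand) encodes a gel-forming mucin of the airway surface and the stomach. Its levels were 11.1 and 6.48 FPKM in the si1 libraries, 17.8 and 19.5 in the si2 libraries, and 18.8 and 18.9 in the NC libraries. Both si1 libraries lay below all 4 others, while the si2 libraries lay on either side of the NC pair. The group means were 8.79 ± 3.26 FPKM in si1, 18.7 ± 1.17 in si2 and 18.9 ± 0.0508 in NC (SD, n = 2 each), so si1 held 0.465 times the NC level. MUC5AC fell in si1 by 1.06 log2 units (SE 0.198, limma adjusted p = 0.0104, lower than NC in 2 of 2 libraries). Of all genes tested in si1, 22.4% were called in either direction and 12.9% were called lower. Leaving out NC replicate 1 ended the call (adjusted p = 0.0621), as did leaving out NC replicate 2 (0.059) or dropping the requirement of a mean level (0.082). Over 15 alternatives the limma adjusted p ran from 5.62e-07 to 0.082.

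In si2 the difference of MUC5AC from NC was −0.016 log2 units (SE 0.198, 95% interval −0.484 to 0.452, limma adjusted p = 0.962). This SE and interval use a spread pooled over the 3 groups, which includes the distance between the si1 libraries. With only si2 and NC in the fit the SE was 0.0622 (limma adjusted p = 0.869). The missed threshold does not show that the levels were equal. In si2, MUC5AC exceeded its si1 level by 1.05 log2 units (SE 0.198, limma adjusted p = 0.00637, higher in 2 of 2 libraries). Of all genes tested in that comparison, 38.5% were called in either direction and 19.9% were called higher. This call was lost in 1 of 15 alternatives, when no mean level was required (limma adjusted p = 0.0559).

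The 2 si1 libraries differed from each other in MUC5AC more than most genes did. The level in si1 replicate 1 was 1.71 times that in replicate 2, from 3165 and 1913 reads. On the log2 scale they were 0.69 apart, and 8 of the 4415 genes averaging 10 FPKM or more were further apart (0.181%). The corresponding distance was 0.12 between the si2 libraries and 0.0052 between the NC libraries. Without si1 replicate 1 the fall was 1.41 log2 units, and without si1 replicate 2 it was 0.72. Gene length moved with the same pair of libraries. Among 1264 protein-coding genes of 10000 bases or more, MUC5AC's own class, the median of si1 replicate 1 minus replicate 2 was 0.076, and it was −0.053 among 2162 genes under 3000 bases. In si1 minus NC the medians of these classes were −0.037 and 0.025. These shifts were smaller than the MUC5AC differences, and the part of length in the result was not tested.

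**Figure D2:**
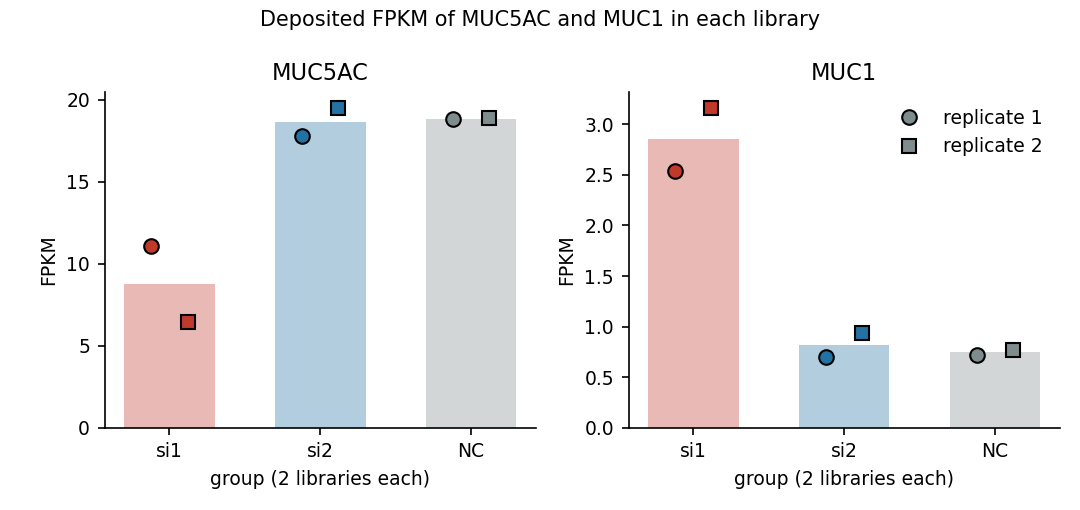
FPKM of MUC5AC (left) and MUC1 (right) in si1, si2 and NC, with bars for the mean of 2 libraries, circles for replicate 1 and squares for replicate 2. In si1, MUC5AC lies at 11.1 and 6.48 FPKM, below the 17.8 to 19.5 FPKM of the other libraries, and MUC1 lies at 2.54 and 3.16 FPKM, above the 0.698 to 0.94 FPKM of the others.

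MUC1 (ENSG00000185499, chr1:155185824-155192916, hg38, minus strand) encodes a surface mucin of most simple epithelia with a signalling tail. It stood at 2.54 and 3.16 FPKM in the si1 libraries, 0.698 and 0.94 in the si2 libraries, and 0.723 and 0.773 in the NC libraries, from 196 and 252, 52 and 67, and 57 and 64 reads. Both si1 libraries were above all others, and the si2 pair spanned the NC pair. The means were 2.85 ± 0.435 FPKM in si1, 0.819 ± 0.171 in si2 and 0.748 ± 0.035 in NC (SD, n = 2 each), and the si1 mean was 3.81 times that of NC. MUC1 reached the required mean level through si1 alone, since its means in si2 and NC were under 1 FPKM, so passing the filter already favoured a difference. With a lower limit of 0.1 FPKM, which all 6 libraries exceeded, the limma adjusted p in si1 was 0.00698.

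MUC1 rose in si1 by 1.13 log2 units on the log2(FPKM + 1) scale (SE 0.155, limma adjusted p = 0.00297, higher than NC in 2 of 2 libraries), and 9.47% of all genes tested were called higher. The added 1 FPKM shrinks the change of a gene at this level. On log2 CPM of the recovered reads the rise was 1.93 (SE 0.247). The call in si1 was kept in each of the 15 alternatives, with adjusted p from 1.75e-06 to 0.0271. In si2 against NC the difference was 0.054 (SE 0.155, 95% interval −0.311 to 0.42, limma adjusted p = 0.825), and 29% of all genes tested were called in that comparison against 0 of the 2 members tested. MUC1 was lower in si2 than in si1 by 1.08 log2 units (−1.08, SE 0.155, limma adjusted p = 0.00204), again in each of the 15 alternatives.

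**Figure D3:**
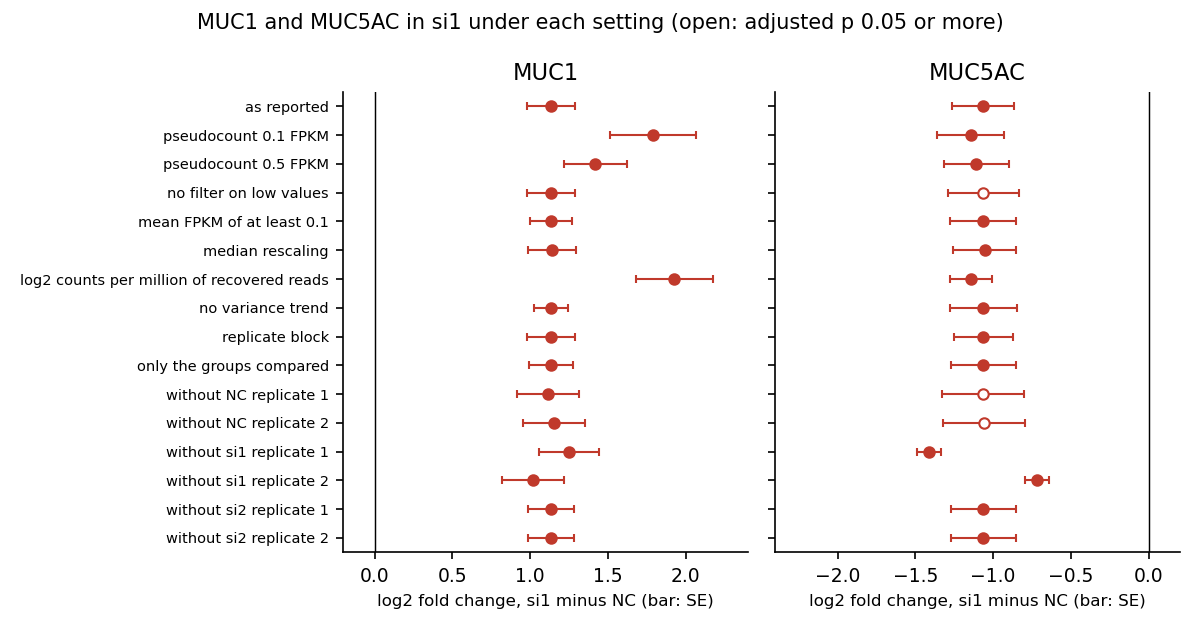
Log2 fold change of si1 minus NC for MUC1 (left) and MUC5AC (right) as reported and under 15 alternative settings, with bars for the SE and open circles where the adjusted p was 0.05 or more. MUC1 lies between 1.02 and 1.93 and keeps its call throughout, whereas MUC5AC lies between −1.41 and −0.72 and loses it without the filter and without either NC library.

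With si1 and si2 combined against NC, 20.5% of all genes tested were called. MUC1 was called higher (0.59, SE 0.134, limma adjusted p = 0.0225). MUC5AC was not called (−0.54, SE 0.172, limma adjusted p = 0.0674). Its difference was −0.71 without si1 replicate 1 and −0.37 without si1 replicate 2. Those fits take their spread from the si2 and NC pairs, which lay closer together in MUC5AC than the si1 pair. Since si1 and si2 differed in both genes, the averages over si1 and si2 describe neither group. In the fit that took the 4 knockdown libraries as 1 group, the limma adjusted p was 0.552 for MUC1 and 0.604 for MUC5AC. The MUC1 call for both groups together was also lost without NC replicate 1 (adjusted p = 0.126), NC replicate 2 (0.111), si1 replicate 2 (0.0623) or si2 replicate 2 (0.0516).

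The sequence at the start of MUC1 is shown because MUC1 was the member that rose. It runs from 250 bases before to 50 after the RefSeq start (GRCh38.p14, chr1:155192866-155193165, minus strand), 5′ to 3′ in the direction of transcription, with motif matches in capitals.
MUC1 promoter: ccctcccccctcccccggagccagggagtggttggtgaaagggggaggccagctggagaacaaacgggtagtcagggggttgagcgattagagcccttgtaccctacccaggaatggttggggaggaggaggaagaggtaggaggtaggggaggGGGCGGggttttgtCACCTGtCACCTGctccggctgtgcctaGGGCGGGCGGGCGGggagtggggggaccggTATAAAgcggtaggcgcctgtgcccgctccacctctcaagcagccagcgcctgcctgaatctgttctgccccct
The motifs searched on both strands were the TATA box (TATAAA), the GC box (GGGCGG), an E-box bound by ZEB and SNAIL repressors (CACCTG) and the STAT element (TTCNNNGAA). The MUC1 window held 1 TATA box, 4 GC boxes, of which 3 overlap in 1 run, 2 CACCTG E-boxes and 0 STAT elements. Among 27305 human promoters of the same length, 12% held the TATA box, 44.6% the GC box, 20.6% the E-box and 7.88% the STAT element. The RefSeq window of MUC4 held 1 GC box and 1 STAT element. It lies at chr3:195811880-195812179, inside the MUC4 gene model, which starts at 195812277 on the minus strand. The RefSeq table matched 4 of the 7 members. The windows of MUC13 and MUC16 are not described because they lie still further from the start of the gene models whose reads are given here. The MUC1 window had 13 CpG dinucleotides and 65.7% G or C, beside medians of 14 and 58.3% over all promoters.

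The other surface mucins were at the edge of detection. MUC4 (chr3:195746765-195812277), a partner of the receptor ERBB2, had 4 and 3 reads in the si1 libraries, 1 and 8 in the si2 libraries and 2 and 1 in the NC libraries. The groups overlapped. MUC13 (chr3:124905442-124953819), a surface mucin best known from the gut, had 3 and 1 reads in the si1 libraries and 0 in each si2 and NC library, where the absence of reads sets upper limits of 0.0543 and 0.0567 FPKM in si2 and 0.0513 and 0.0488 in NC. The si1 values, 0.0524 and 0.0169 FPKM, were within these limits or barely above them, so no difference was detectable at this depth. MUC16 (chr19:8848844-8981342), which carries the CA125 antigen, had 1 read, in si1 replicate 1, although its gene model of 43830 bases is the longest of the 7. The limit that a count of 0 allows was 0.0039 to 0.00453 FPKM in its other libraries. MUC20 (chr3:195720882-195741123), a surface mucin that binds the receptor MET, had 0 and 1 reads in the si1 libraries, 1 and 0 in the si2 libraries and 1 and 0 in the NC libraries. These limits cover counting error only.

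MUC5B (ENSG00000117983, chr11:1223066-1262172, plus strand), the second airway gel-forming mucin, starts 21.9 kb after the end of MUC5AC. It had 28 and 17 reads in the si1 libraries, 24 and 24 in the si2 libraries and 24 and 15 in the NC libraries, or 0.073 ± 0.0269, 0.0835 ± 0.00259 and 0.0616 ± 0.0221 FPKM (SD, n = 2 each). The groups overlapped, and the si1 libraries, which were lowest in MUC5AC, lay at the highest and the second lowest MUC5B count. The neighbouring gel-forming genes at 11p15 thus did not share one level, with MUC5AC above MUC5B in every library.

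The gene models limit the MUC20 value. The lengths in the table equalled the exons of GENCODE release 29 for all 7 members. Of the exonic bases of MUC20, 42.8% lie in exons of MUC20-OT1, a non-coding gene on the same strand, and 54.1% of the 50-base windows of MUC20 transcripts occur in transcripts of another gene. How shared reads were counted was not given in the sources used here, so the MUC20 level is uncertain. For MUC5AC 0.434% of the windows were shared, with MUC5B, and for MUC1 0%. Within a transcript, 42.4% of the MUC1 windows and 21.4% of the MUC5AC windows occur more than once.

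The genes next to the members did not all follow them. TRIM46, 0.853 kb from MUC1 on the opposite strand, stood at 2.1 and 1.92 FPKM in the si1 libraries, 0.712 and 0.948 in the si2 libraries and 1.14 and 1.03 in the NC libraries. It rose in si1 by 0.53 log2 units (SE 0.146, limma adjusted p = 0.0407), a call kept in 8 of 15 alternatives and lost without any one of the NC or si1 libraries. The TRIM46 means were 2.01 FPKM in si1, 0.83 in si2 and 1.08 in NC, so passing the filter leaned on si1 and favoured a difference. THBS3, 2.67 kb away on the other side and a thrombospondin gene, differed by 0.32 in si1 (SE 0.185, limma adjusted p = 0.267). TOLLIP, the nearest tested gene beyond MUC5B and an adaptor of innate immune receptors, differed by 0.059 in si1 (SE 0.0695, limma adjusted p = 0.591). It fell in si2 by 0.38 (limma adjusted p = 0.00821), a call lost without NC replicate 1 or si2 replicate 2 (adjusted p up to 0.0646). AP2A2, the nearest tested gene on the other side of MUC5AC, differed by 0.15 in si1 (limma adjusted p = 0.325) and fell in si2 by 0.37 (limma adjusted p = 0.0307), a call lost without any one of the NC or si2 libraries (adjusted p up to 0.179).

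The protein-coding genes whose 6 values followed MUC1 most closely, among 4942 that varied by at least 0.5 log2 units, were CPE (Pearson r = 0.992), TOP1MT (r = 0.992) and GPRIN1 (r = 0.99). CPE, a carboxypeptidase that processes peptide hormones, averaged 70.5 ± 6.2 FPKM in si1, 40.6 ± 0.208 in si2 and 40.6 ± 0.254 in NC (SD, n = 2 each). Those closest to MUC5AC were ATXN2L (r = 0.996), NOTCH2 (r = 0.995) and NAV1 (r = 0.995). NOTCH2, a receptor that directs secretory cell fate in the mouse airway, stood at 24.3 and 19.8 FPKM in the si1 libraries, 31.4 and 31.3 in the si2 libraries and 31.1 and 30.7 in the NC libraries. As in MUC5AC, si1 replicate 2 was the lowest library in all 3 genes. These genes were chosen for these values, which are given as a description. These r values describe 6 libraries in 3 groups.

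Of the 15 other genes of the mucin family listed, 4 were tested, MUC15, CD164, MCAM and OVGP1. In si1, 1 rose and 0 fell, and in si2, 1 rose and 1 fell, against 9.47% higher and 12.9% lower in si1 and 13.6% higher and 15.4% lower in si2 over all genes tested. MUC15, another surface mucin, had the highest mean level of the listed MUC genes after MUC5AC. It stood at 5.71 and 5.38 FPKM in the si1 libraries, 2.23 and 3.26 in the si2 libraries, and 3.03 and 3.49 in the NC libraries. As for MUC1, the si1 libraries were above the rest. MUC15 rose in si1 by 0.62 (SE 0.143, limma adjusted p = 0.0221), but the call was lost without any one of the NC or si1 libraries (adjusted p up to 0.129). It was lower in si2 than in si1 (−0.82, limma adjusted p = 0.00449) in each of the 15 alternatives. CD164, a sialomucin of endosomes and lysosomes, rose in si2 to 88.2 ± 0.531 FPKM, against 45.4 ± 0.485 in NC, and was 48.5 ± 4.53 in si1 (SD, n = 2 each; si2 minus NC 0.94, SE 0.0729, limma adjusted p = 0.000385). MCAM, an adhesion molecule also called MUC18, fell in si2 to 10 ± 0.588 FPKM, against 18.4 ± 0.338 in NC, and was 17.1 ± 0.87 in si1 (SD, n = 2 each; si2 minus NC −0.82, SE 0.0748, limma adjusted p = 0.000623).

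The enzymes that build O-glycans on mucins moved in both directions. Of 20 polypeptide GalNAc transferases, which attach the first sugar to serine or threonine, 10 were tested. In si1, 0 rose and 3 fell, beside 9.47% higher and 12.9% lower over all genes tested, and the median over the 10 was −0.14 beside −0.0071. In si2, 3 rose and 1 fell, beside 13.6% and 15.4% over all genes tested, and the median was 0.16 beside 0.0046. GALNT12 fell in si1 to 8.07 ± 0.577 FPKM, against 13.1 ± 0.459 in NC (SD, n = 2 each; −0.64, SE 0.0767, limma adjusted p = 0.00179). It rose in si2 to 17.4 ± 0.482 FPKM (0.38, limma adjusted p = 0.0119), a call lost without any one of the NC or si2 libraries (adjusted p up to 0.0816). GALNT14 fell in si1 by 0.43 (limma adjusted p = 0.0192, lost without NC replicate 1 or si1 replicate 2, up to 0.127). The most abundant, GALNT2 and GALNT1, stood at 42.8 to 58.3 and 21.7 to 37.6 FPKM over the 6 libraries.

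Of 19 core, extension and capping genes 11 were tested, with 1 up and 0 down in si1 (median −0.089) and 3 up and 3 down in si2 (median −0.087). Over all genes tested, 9.47% were higher and 12.9% lower in si1 (median −0.0071), and 13.6% and 15.4% in si2 (median 0.0046). GCNT1, which adds the core 2 branch, rose in si1 to 4.78 ± 0.416 FPKM, against 2.52 ± 0.246 in NC (SD, n = 2 each; 0.71, SE 0.104, limma adjusted p = 0.00397). C1GALT1, which makes core 1, fell in si2 by 0.62 (SE 0.078, limma adjusted p = 0.00199). Its chaperone C1GALT1C1 rose in si2 by 0.50 (SE 0.102, limma adjusted p = 0.0124), a call lost without NC replicate 1, NC replicate 2 or si2 replicate 2 (adjusted p up to 0.0763). The synthase and its chaperone thus moved in opposite directions in si2.

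Of 25 genes of mucin folding, packaging and exocytosis 17 were tested, with 2 up and 5 down in si1 (median −0.026) and 4 up and 4 down in si2 (median −0.0057). These counts stand beside 9.47% higher and 12.9% lower of all genes tested in si1, and 13.6% and 15.4% in si2. XBP1, a transcription factor of the secretory pathway, stood at 24.3 and 26.6 FPKM in the si1 libraries, 53.4 and 54 in the si2 libraries, and 53.2 and 53.9 in the NC libraries. Like MUC5AC, it was low in the si1 libraries and at the NC level in the si2 libraries, and it fell in si1 by 1.05 (SE 0.0644, limma adjusted p = 0.000167). AGR2, a disulfide isomerase of the endoplasmic reticulum required for mucin production in mouse intestine, stood at 4.73 and 5.9 FPKM in the si1 libraries, 12.8 and 11.3 in the si2 libraries, and 7.3 and 7.38 in the NC libraries. It fell in si1 by 0.41 (limma adjusted p = 0.037, kept in 7 of 15 alternatives and lost without NC replicate 1, NC replicate 2 or si1 replicate 1, up to 0.147) and rose in si2 by 0.64 (limma adjusted p = 0.00623). AGR2 carried most of the summed level of the 8 goblet and club cell markers, which was 5.12 to 6.12 FPKM in si1, 12 to 13 in si2 and 7.41 to 7.5 in NC. MUC5AC and this sum were both lowest in si1, but the sum follows AGR2. SPDEF and TFF3, also on this list, averaged lowest in NC, from at most 9 reads in a library. SPDEF averaged 0.126 FPKM in si1, 0.136 in si2 and 0.0149 in NC, and TFF3 0.181, 0.309 and 0.102. The part of these cells' markers in the result was not tested. ANO1, a calcium-activated chloride channel, fell in si1 by 0.94 (limma adjusted p = 0.000449) and in si2 by 0.56 (limma adjusted p = 0.0029). MARCKS, which takes part in mucin granule release, rose in si1 by 0.64 (limma adjusted p = 0.00102) and in si2 by 0.89 (limma adjusted p = 0.000302).

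**Figure D4:**
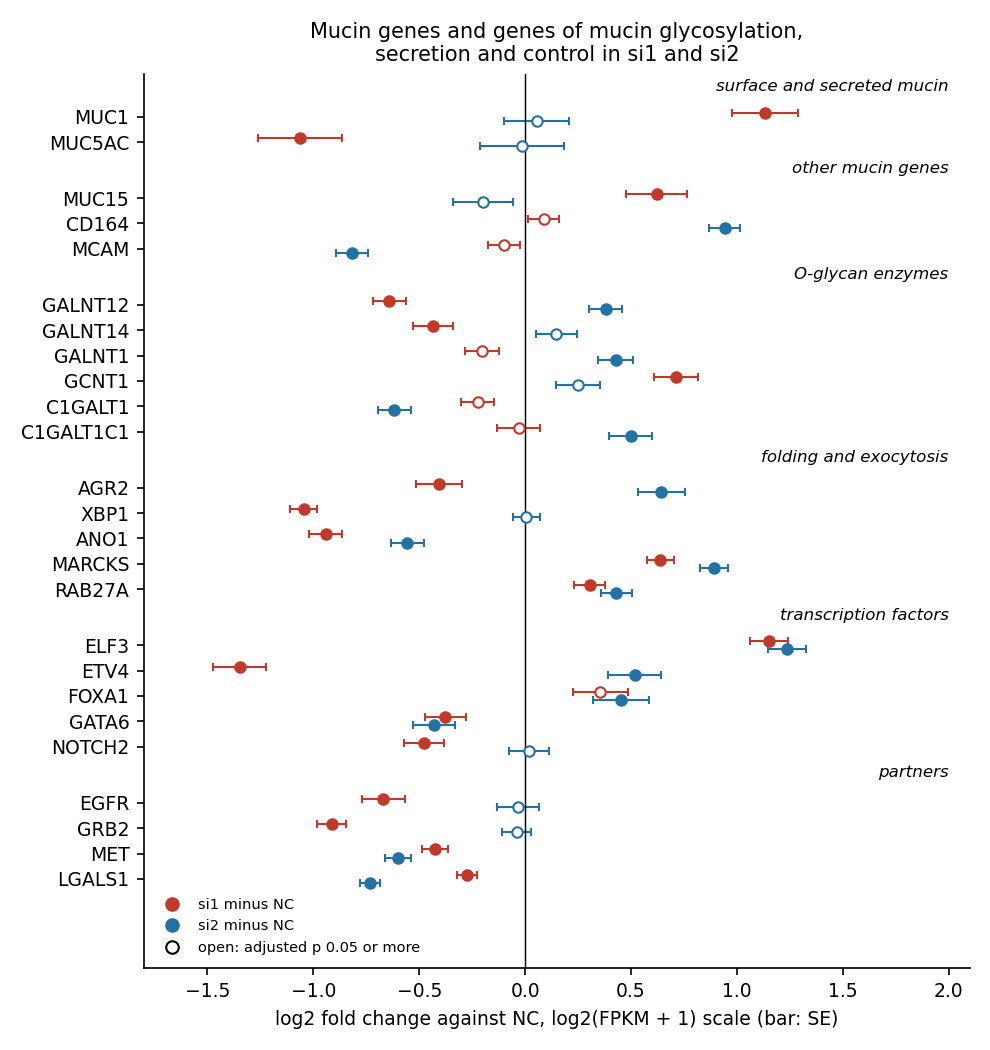
Log2 fold change against NC (horizontal axis, log2(FPKM + 1) scale, bars for the SE) of MUC1, MUC5AC and named genes of the mucin lists in si1 and in si2, which share the NC libraries; filled circles mark an adjusted p under 0.05. MUC1 at 1.13 and MUC5AC at −1.06 depart from 0 in si1 and lie at 0.054 and −0.016 in si2, and XBP1 lies at −1.05 in si1 and 0.0049 in si2.

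Of 26 transcription factors and signal mediators linked to mucin genes 19 were tested, with 3 up and 7 down in si1 (median −0.068) and 4 up and 1 down in si2 (median 0.028). The shares of all genes tested were 9.47% higher and 12.9% lower in si1, and 13.6% and 15.4% in si2. ELF3, an epithelial ETS factor, rose in both groups, to 5.32 ± 0.396 FPKM in si1 and 5.71 ± 0.223 in si2, against 1.85 ± 0.0442 in NC (SD, n = 2 each; 1.15, limma adjusted p = 0.000388 in si1, and 1.24, 0.000299 in si2). ETV4, another ETS factor, fell in si1 to 1.67 ± 0.395 FPKM and stood at 8.7 ± 0.947 in si2, against 5.76 ± 0.244 in NC (SD, n = 2 each). The ETV4 fall in si1 was 1.35 (SE 0.126, limma adjusted p = 0.000741). Its rise in si2 was 0.52 (limma adjusted p = 0.0222), a call lost without NC replicate 1, NC replicate 2 or si2 replicate 1 (adjusted p up to 0.123). ELF3 was called in both groups, and MUC1 and MUC5AC in si1 and not in si2. The part of these factors in the mucin levels was not tested.

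Of 18 sheddases, ligands and signalling partners of surface mucins 15 were tested, with 1 up and 6 down in si1 (median −0.094) and 2 up and 2 down in si2 (median 0.015). Among all genes tested, the shares were 9.47% higher and 12.9% lower in si1, and 13.6% and 15.4% in si2. EGFR, the receptor through which many stimuli induce MUC5AC in airway cells, stood at 26.1 and 20.8 FPKM in the si1 libraries, 37.4 and 36.2 in the si2 libraries, and 37.9 and 37.5 in the NC libraries. It fell in si1 by 0.67 (SE 0.101, limma adjusted p = 0.00465) and differed by −0.033 in si2 (limma adjusted p = 0.839). GRB2, an adaptor that binds the MUC1 tail, fell in si1 to 19.5 ± 1.13 FPKM, against 37.5 ± 1.2 in NC, and was 36.5 ± 0.918 in si2 (SD, n = 2 each; si1 minus NC −0.91, SE 0.0683, limma adjusted p = 0.000348). MET, the partner of MUC20, fell in si1 by 0.43 (limma adjusted p = 0.00366) and in si2 by 0.60 (limma adjusted p = 0.000931). MMP14, a protease that sheds MUC1, rose in si2 by 0.60 (limma adjusted p = 0.0013) and differed by 0.072 in si1 (limma adjusted p = 0.488).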

How the data were processed

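The deposited FPKM of 58735 genes in 6 libraries were computed by the authors, and the submitters' processing notes name hg38. The sources used here give neither the aligner nor the counter or annotation. Deposited starts and ends equalled GENCODE release 29 for all 58735 genes. Multiplied by length, 100% of the FPKM of a library fell within 0.001 reads of whole multiples of a single step, which gave the reads.

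log2(FPKM + 1) was fitted with limma 3.58.1 in R 4.3.3 on all 6 libraries with 1 coefficient per group and a variance trend, for genes averaging 1 FPKM or more. Tests were two-sided. For a count of 0, 3 reads were taken as the limit. The fit was tested on simulated reads. The members and lists were chosen with earlier results of these data known. Named genes were the members, from each list the 4 largest changes in both knockdown groups together and the 2 highest levels, the nearest tested neighbours, the 3 closest patterns per tested member and the highest marker of each cell type list; not all of them are described. Repeats of 15 to 330 bases were searched, with 80% identity to the next unit. Promoter sequences are RefSeq's.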

Additional observations from a re-analysis of the deposited data

Results flagged for a closer look

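Between the 2 groups labelled as knockdown, MUC1 and MUC5AC differed in a direct test. That test was si2 minus si1 in limma on the log2(FPKM + 1) scale, and it called 38.5% of all genes tested. The difference was −1.08 for MUC1 and 1.05 for MUC5AC, and both si2 libraries lay on that side of both si1 libraries.

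Among the named genes of the mucin lists, those higher in si2 than in si1 were ETV4 (1.87), AGR2 (1.05), XBP1 (1.05), GALNT12 (1.02), GRB2 (0.87), CD164 (0.85), EGFR (0.64), GALNT1 (0.63), GALNT14 (0.58), C1GALT1C1 (0.53), MMP14 (0.53), ANO1 (0.39) and MARCKS (0.25). Those lower were MUC15 (−0.82), MCAM (−0.72), HIF1A (−0.47), GCNT1 (−0.46), LGALS1 (−0.46), C1GALT1 (−0.39) and GALNT2 (−0.31). Among genes named for their position, the differences were −0.72 for TRIM46, −0.51 for AP2A2 and −0.44 for TOLLIP. Among those chosen for a pattern like a member's, whose differences the choice itself favours, they were −0.78 for CPE, −0.47 for TOP1MT, −0.45 for GPRIN1, 0.67 for NAV1, 0.50 for NOTCH2 and 0.49 for ATXN2L. The markers LAMP3 (0.43) and KRT7 (−0.37) differed too. Calls lost without 1 library were those of GALNT2 and MARCKS (either si2 library), GCNT1 (si1 replicate 2 or si2 replicate 2), C1GALT1 and ANO1 (si2 replicate 2), GPRIN1 (si2 replicate 1) and LAMP3 (either si1 library or si2 replicate 1), with limma adjusted p up to 0.125.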

How the results depend on the processing

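In si1 against NC, the rise of MUC1 kept its call in 15 of 15 alternatives and the fall of MUC5AC in 12. Without a filter on low values, members called were 0 for both groups together, 1 in si1 and 1 in si2 against si1, and genes called were 1127, 1414, 1785 (si2) and 3130. For both groups together, members called were 2 on log2 CPM and 0 with the 4 knockdown libraries as 1 group, where 84 genes were called in place of 2529.

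Over the fits that left out 1 library, members called ran from 0 to 2 for both groups together, from 1 to 2 in si1, and stayed at 0 in si2 and 2 in si2 against si1. Genes called ran from 701 to 2844, 1114 to 2443, 1490 to 4047 and 2973 to 4367, beside 2529, 2758, 3578 and 4743 with all libraries. The uncalled difference of si2 from NC was 0.15 for MUC1 and 0.045 for MUC5AC without si2 replicate 1, and −0.042 and −0.077 without si2 replicate 2; MUC1 thus reversed its sign in 1 of these fits and MUC5AC in the other. Fits that left out 1 library assume that the remaining library of its group varies like the other groups.

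Deviations of same-numbered libraries correlated at −0.052 to 0.0503 across genes, so no strong effect shared by replicate number was seen. The labels do not say whether same-numbered libraries were prepared together, and these correlations cannot decide it. With the replicate block, genes called were 2058, 2335, 3121 and 4314, and members called stayed at 1, 2, 0 and 2. At this depth MUC4 had 1 to 8 reads per library, and MUC13, MUC16 and MUC20 had 0 to 3, too few for the test.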

Other observations

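Apart from MUC15, the other MUC genes listed had few or no reads, as most members did. MUC3A, MUC7, MUC17, MUC21 and MUC22 had 0 reads in all 6 libraries, MUC2 had 2 reads, both in NC replicate 2, and MUC6 had 0 to 2 reads per library. MUC19, a gel-forming mucin gene named after its values were seen, had 2 and 4 reads in the si1 libraries, 14 and 14 in the si2 libraries, and 20 and 21 in the NC libraries. It was lowest in si1, at a level too low for the test. How many other genes at this level were lowest in si1 was not counted. MUC12, a surface mucin, had 13 and 33 reads in the si1 libraries, 18 and 15 in the si2 libraries and 28 and 31 in the NC libraries, and its si1 pair overlapped both other groups.

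A pair of signalling genes of the transcription factor list, also named after their values were seen, departed from NC in si1 as MUC1 and MUC5AC did. STAT3 rose in si1 by 0.70 (SE 0.091, limma adjusted p = 0.00247), to 38.1 FPKM, against 23.1 in NC, and stood at 22.4 in si2 (−0.043, limma adjusted p = 0.761). HES1, a target of Notch receptors, fell in si1 by 0.83 (SE 0.104, limma adjusted p = 0.00215), to 5.99 FPKM, against 11.5 in NC, and stood at 14.7 in si2 (0.33, limma adjusted p = 0.0513). The si1 calls of STAT3 and HES1 were kept in 15 of 15 alternatives. The receptor genes NOTCH1 and NOTCH3 did not average lower in si1. NOTCH1 averaged 4.74 FPKM in si1 and 4.45 in NC, and NOTCH3 3.57 and 2.73. The part of Notch receptors in these levels was not tested.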
